A study of Danio rerio with 2 samples.

Results

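Isolated open sites are stretches of accessible chromatin that were called in both replicates and had no other such site within 200 kb on either side. They were chosen from 2 ATAC-seq peak lists of zebrafish blood cells, without chromosome 4. Peaks of the lists that overlapped by at least 1 bp were merged, and a merged region with a peak from each list counted as a shared region. Of 13267 shared regions on 24 chromosomes, 48 were the first or last of a chromosome and were left out. Of the remaining 13219, 331 had more than 200 kb free of shared regions on both sides, or 2.5% (95% Wilson interval 2.25 to 2.78). The other 12888 are the regions they are set against. Intervals cover counting error only.

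The study has 1 group, HPSC, in 2 replicates. The cells were sorted from the reporter line Tg(CD41:GFP,gata1:dsRed) as CD41+gata1-, which the labels call hematopoietic stem cell. No treatment other than flow cytometry is given, and the title tag 3m is not spelled out. Both fluorescent reporters rest on promoter fragments, so the sort follows transgene activity and not the endogenous proteins. Nothing states that the replicates came from separate animals, so their spread may be technical. Genes were not assigned to sites, and the labelled cell type was not checked against marker genes here.

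In ATAC-seq a transposase cuts DNA that is not wrapped tightly by nucleosomes, so peaks mark promoters, enhancers and sites bound by architectural proteins such as CTCF. Vertebrate enhancers can lie far from the gene they control, some of them inside long stretches with few genes. Chromatin loops can bring such sites close to their target promoters in blood as in other tissues. The series concerns genome folding during blood stem cell development.

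Depth differed between the replicates. Replicate 1 was 2.28 times as deep as replicate 2, judged by a genome-wide background of 1.32 reads over each base against 0.578, after extension of the reads by the peak caller. Without chromosome 4, the lists held 32575 and 15301 peaks. The fold enrichment of a peak is the authors' own value, the height of its summit over local background with 1 added to both. It is therefore not the plain ratio of pileup to background. The summit pileup counts the extended reads over the summit base and was recovered here from fold and p value.

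The first question was how many isolated sites there are for the number of shared regions. If the regions of each chromosome had been placed uniformly and independently of each other, 198 would have been isolated, so the observed 331 were 1.67 times that number. The expectation comes from a closed formula that ignores assembly gaps and stretches where reads cannot be placed, and no p-value was computed. The excess depended on the distance chosen. At 100 kb, 1232 regions were isolated, 0.773 times the expectation of 1595. At 300 kb, 121 were isolated, 4.84 times the expectation of 25. With a −log10 q of at least 10 in both lists, 736 regions were isolated at 200 kb, and the ratio was also below 1, at 0.760.

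Gaps over 200 kb as such were nearly as frequent as uniform placement gives. The expected number of gaps was computed for this length only. Of 13243 gaps between neighbouring shared regions, 1725 exceeded 200 kb, against 1606 expected, a ratio of 1.07. These gaps covered 681 Mb, or 53.9% of the 1263 Mb spanned by peaks. The median gap was 41.4 kb and the largest 2506 kb, and 47 gaps exceeded 1 Mb. Long gaps lay side by side more often than their number gives: if the gaps of each chromosome came in no particular order, 228 regions would have had a long gap on both sides, and the observed number was 1.45 times that. Counted along the chromosomes, 220 isolated sites had no isolated site as a direct neighbour, and 111 lay in 52 runs of neighbouring isolated sites. Such neighbours share a gap, and no expectation was computed for runs.

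Every chromosome studied carried isolated sites, between 6 on chromosome 25 and 23 on chromosome 7. On 23 of 24 chromosomes the number was above the uniform expectation. The ratio was highest on chromosome 14, with 18 isolated sites and 7.06 expected, and on chromosome 10, with 13 and 5.19. It was close to 1 on chromosome 25, with 6 sites and 6.04 expected, on chromosome 23, with 8 and 7.78, and on chromosome 17, with 11 and 10.6. As a share of shared regions, isolated sites ran from 1.38% on chromosome 3 to 4.16% on chromosome 24. Chromosome 3 had 11.6 shared regions per Mb and chromosome 24 had 9.12.

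**Figure D1:**
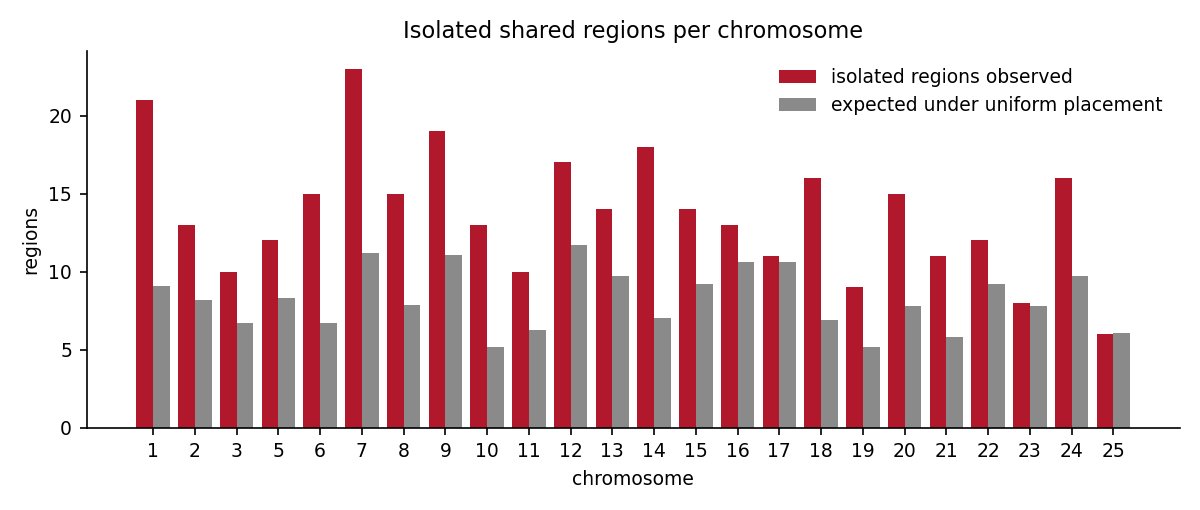
Number of isolated shared regions on each chromosome (red) beside the number expected if the same regions were placed uniformly (grey); the y axis counts regions. The red bar is higher on 23 of 24 chromosomes, and chromosome 25 has 6 sites against 6.04 expected.

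Isolated sites lay in the central parts and near the ends of chromosomes, in both with a smaller share than the other shared regions. The rule picks sites where shared regions are sparse, so these contrasts can restate where shared regions are dense. When each chromosome was cut into 3 equal parts, the central part held 27.8% of isolated sites (95% Wilson interval 23.2 to 32.9) and 36.2% of the other shared regions (35.3 to 37.0). Within 2 Mb of a chromosome's ends lay 6.04% of isolated sites (3.95 to 9.15) and 9.33% of the other regions (8.84 to 9.84). Windows of 10 Mb, counted from the start of each chromosome and shorter at its end, held a median of 2 isolated sites. Of 138 windows, 18 held none, among them short windows at chromosome ends. The most, 7, lay between 60 and 70 Mb on chromosome 7 and between 40 and 50 Mb on chromosome 9.

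The site farthest from any other shared region lay on chromosome 22 at chr22:8770693-8771334 (GRCz10), with 1438 kb free before it and 1135 kb after it. It was 642 bp wide, and its fold was 10.8 in replicate 1 and 5.70 in replicate 2. The next, chr18:33368513-33369187, had 1736 kb before and 798 kb after it, with folds of 5.45 and 5.50. Next came chr13:34563522-34563806 had gaps of 910 and 783 kb and folds of 8.20 and 5.70. In replicate 1 these 3 folds lay on both sides of the median of all isolated sites, 7.73, and in replicate 2 they were all below it, at 6.34.

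A second site of chromosome 22, chr22:5683886-5684209, had 703 and 1311 kb around it and folds of 8.62 and 10.1. Chromosome 7 gave 3 of the 10 most distant sites. At chr7:63526083-63526365 the gaps were 1515 and 655 kb and the folds 6.07 and 6.25. The neighbouring isolated sites chr7:42493378-42493681 and chr7:43602192-43602596 faced each other across a gap of 1109 kb, with folds of 5.36 and 5.61 at the first and of 9.22 and 5.36 at the second.

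The last 3 of these 10 sites differed in strength. At chr8:5992599-5993027 the folds were 10.8 and 7.95, with gaps of 770 and 655 kb. At chr1:42181354-42181995 they were 4.62 and 4.12, with gaps of 657 and 803 kb. At chr3:8785361-8785647 they were 3.45 and 5.07, with gaps of 634 and 719 kb, and the pileup was 7 extended reads in each replicate. Among the 10 sites the fold was higher in replicate 1 at 5, against 236 of all 331 isolated sites.

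At the other end, the limit of 200 kb cut through a continuous range. Just inside it lay chr14:41311251-41311715, chr8:13347788-13348366 and chr12:41217039-41217793, with smaller gaps of 200.1, 200.1 and 200.4 kb. Their folds were 14.5, 11.9 and 18.5 in replicate 1 and 8.33, 7.14 and 10.8 in replicate 2. Just outside it lay chr11:18856807-18857375, chr1:21960851-21961410 and chr24:40827610-40827929, at 199.8, 199.2 and 199.1 kb. Their folds were 8.75, 5.02 and 12.9 in replicate 1 and 7.56, 7.04 and 6.97 in replicate 2. The smaller gap of the 331 sites had a median of 260 kb and the larger gap a median of 453 kb.

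The second question was how strong isolated sites are. Isolated sites had a slightly lower fold than other shared regions in both replicates. In replicate 1 their fold enrichment had a median of 7.73 (quartiles 5.57 and 11.0), against 8.61 (6.30 and 12) for the others, a ratio of 0.897. In replicate 2 the median was 6.34 (5.28 and 8.45) against 6.96 (5.65 and 9.02), a ratio of 0.910. The mean ratio was 0.904 ± 0.00887 (SD, n = 2 replicates). Both ratios rest on the same regions, chosen from both lists, so this SD is not a spread of independent estimates. With isolation defined in each list alone, among all its peaks, shared or not, the ratio was 0.893 in replicate 1 and 0.874 in replicate 2. Those ratios rest on 45 and 297 isolated peaks, of which 12 and 216 were found in the other list. They therefore describe other sets than the 331 sites. The quartiles overlapped, regions are not replicates, and no test was run. When only peaks with a −log10 q of at least 10 were kept in both lists, isolation was defined anew, which gave 736 isolated regions. Their mean ratio to the other remaining regions turned to 1.03. With a minimum of 5, treated in the same way, it was 0.991. The main isolated sites that pass these limits were not compared on their own.

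Summit pileups gave the same order. Isolated sites had a median of 21 extended reads in replicate 1 and 11 in replicate 2, and the other regions had 27 and 14. Local background was lower at isolated sites too. Its median in extended reads was 1.92 at isolated sites and 2.26 elsewhere for replicate 1, and 0.840 at isolated sites and 1.08 elsewhere for replicate 2. Since fold has 1 added to both height and background, it also depends on how low the background is. The part of background in fold and in the other values was not tested. Median background was 3.39 and 1.73 extended reads for regions less than 1 kb from another. It was also higher at strong sites. In replicate 1 its median was 1.82 at isolated sites and 2.16 elsewhere for folds of 8 to 10. For folds of at least 16 it was 3.24 and 3.55. Whether reads of a close neighbour or of the site itself raised the background was not tested. Held against the 8290 other regions that were at least 10 kb from a neighbour, isolated sites had backgrounds 0.932 and 0.875 times as high and folds 0.857 and 0.898 times as high.

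The decline with distance was small next to the spread among sites. Median folds were highest for regions with a smaller gap of 10 to 20 kb in replicate 1, at 9.12, and of 20 to 50 kb in replicate 2, at 7.14. They were 8.65 and 6.60 at 150 to 200 kb, and 7.67 and 6.34 at 200 to 300 kb. For the 18 sites with both gaps over 500 kb they were 7.76 and 5.86. Medians were also low close to a neighbour, with 7.37 and 6.67 at less than 1 kb and 7.59 and 6.16 at 1 to 5 kb, the second pair below those at 200 to 300 kb in both replicates.

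**Figure D2:**
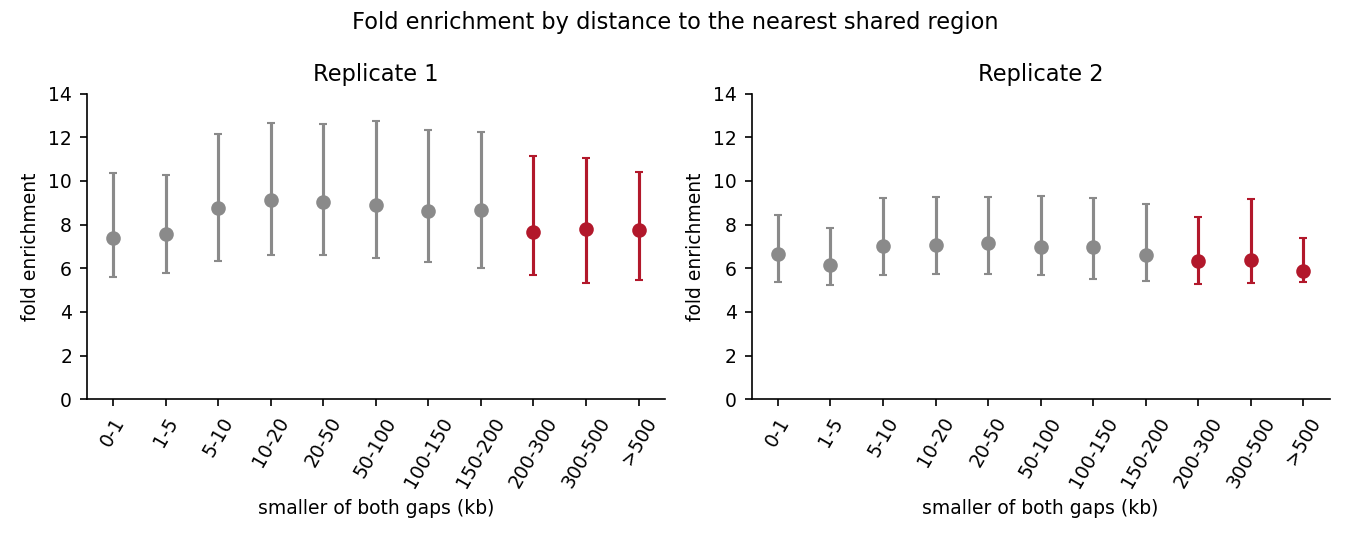
Median fold enrichment (points) with quartiles (bars) by the smaller of a region's gaps in kb, for replicate 1 (left) and replicate 2 (right); isolated sites are red and other shared regions grey. The red medians lie between 7.67 and 7.81 in replicate 1, below the grey ones from 5 to 200 kb, and the quartiles overlap throughout.

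Strong isolated sites did occur. A fold of at least 16 in replicate 1 was reached by 35 isolated sites, or 10.6% (95% Wilson interval 7.70 to 14.4), and by 10.1% of the other regions (9.62 to 10.7). In both replicates it was reached by 2 isolated sites, 0.604% (0.166 to 2.18), and by 1.71% of the others (1.5 to 1.95). At lower limits isolated sites had the smaller share. The lower of both folds was at least 6 in 50.8% of isolated sites (45.4 to 56.1) and in 61.2% of the others (60.4 to 62.1). It was at least 4 in 92.4% of isolated sites (89.1 to 94.8) and in 96.0% of the others (95.6 to 96.3).

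The strongest isolated site was chr20:4437601-4438039, with folds of 38.3 and 23.7, 256 kb from its nearer neighbour. Its pileup was 706 in replicate 1 and 91 in replicate 2, a ratio of 7.76, where isolated sites had a median of 1.93. Both summits fell on the same base. The next strongest was chr18:35861020-35861677, with folds of 25.1 and 16.8 and pileups of 199 and 63. It was the only other isolated site with a fold of at least 16 in both replicates.

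The remaining 8 of the 10 strongest had a lower fold between 14.7 and 15.8. Chromosome 1 carried 3 of them. At chr1:55764977-55765745 the folds were 20.4 and 15.8, with 693 kb free after the site. At chr1:23866100-23866941 they were 22.7 and 15.5, with a smaller gap of 201 kb, close to the limit. At chr1:15387002-15387877 they were 16.4 and 14.7. The others lay at chr2:14338582-14339121 with folds of 18.7 and 15.8, chr5:15921251-15921938 with 19.6 and 15.8, and chr16:1736363-1736748 with 24.9 and 15.4. The last pair was chr9:49961378-49962058 with 20.1 and 15.1, and chr24:23057112-23057606 with 25.2 and 14.8. In all 10 the fold was higher in replicate 1, as at 71.3% of all isolated sites (95% Wilson interval 66.2 to 75.9) and 74.9% of the other regions (74.1 to 75.6), and summits lay at most 38 bp apart.

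The 5 weakest isolated sites had a lower fold of 2.88 to 3.45. At chr8:39408424-39408663 the folds were 2.88 in replicate 1 and 4.60 in replicate 2. At chr5:5252964-5253355 they were 4.92 and 3.26. The site chr3:8785361-8785647, given above, was also among them. At chr15:27971392-27971800 the folds were 3.45 and 4.82, and at chr22:7331911-7332249 they were 3.45 and 4.43. Their pileups were 7 to 12 in replicate 1 and 5 to 7 in replicate 2.

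**Figure D3:**
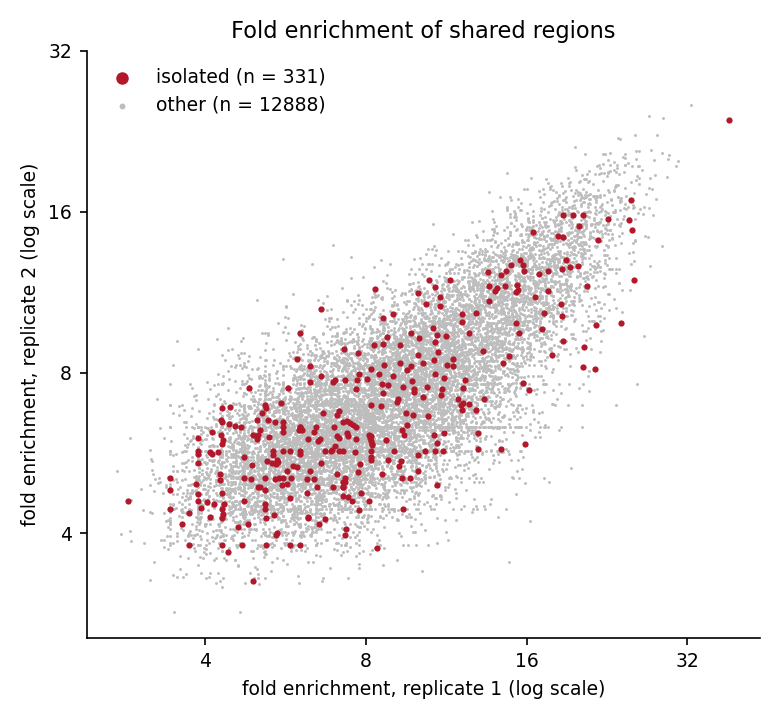
Fold enrichment in replicate 1 (x axis) and replicate 2 (y axis) on log scales; each point is a region, isolated sites in red and other shared regions in grey. The isolated sites lie among the others, apart from the site with 38.3 and 23.7 at the upper right, whose replicate 1 fold is above the highest of the other regions, 32.5.

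The width of isolated sites hardly differed from that of all other shared regions. Merged regions had a median width of 465 bp (quartiles 356 and 602) at isolated sites and 462 bp (339 and 610) elsewhere. The peaks themselves were 379 bp wide at isolated sites and 388.5 bp at the others in replicate 1, and 327 and 351 bp in replicate 2. Held against the 8290 other regions at least 10 kb from a neighbour, they were 0.927 and 0.881 times as wide. Merged regions were 0.969 times as wide. Within classes of fold the order was mixed. In replicate 1 isolated peaks had the larger median for folds of 4 to 6, 6 to 8, 10 to 12 and 12 to 16. Both medians were 405 bp for folds of 8 to 10, and 465 and 466 bp for folds of at least 16. Below a fold of 4 isolated peaks were narrower, at 200 bp (n = 15) against 290 bp (n = 321). In replicate 2 they were wider in some classes and narrower in others. For folds of 10 to 12 in replicate 1 the medians were 481.5 bp (n = 36) and 417 bp (n = 1687), and for folds of 4 to 6 in replicate 2 they were 248 bp (n = 124) and 265 bp (n = 3935).

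Only 5 isolated sites were wider than 1000 bp, or 1.51% (95% Wilson interval 0.647 to 3.49), against 2.13% of the others (1.9 to 2.40). The widest, chr6:45532923-45534489, spanned 1567 bp, with folds of 9.57 and 6.37 and 1112 kb free before it. The others were chr24:29278023-29279156 with 1134 bp, chr25:2569661-2570762 with 1102 bp, chr10:8478664-8479676 with 1013 bp and chr24:6315500-6316504 with 1005 bp. Several peaks of a list were merged in 7 isolated sites, 2.11% (1.03 to 4.30), and in 4.41% of the other regions (4.07 to 4.78). The summits of both replicates lay a median of 30 bp apart at isolated sites and 28 bp at the others.

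The third question was whether isolated sites stand in empty surroundings. Nearly all had peaks nearby that were called in 1 list only. At least 1 such peak lay within 200 kb of 321 of 331 isolated sites, or 97.0% (95% Wilson interval 94.5 to 98.4), and of 99.8% of the others (99.7 to 99.8). A peak of the replicate 1 list alone was there at 319 isolated sites, 96.4% (93.8 to 97.9), and at 99.7% of the others (99.5 to 99.7). A peak of the replicate 2 list alone was there at 114 isolated sites, 34.4% (29.5 to 39.7), and at 47.9% of the others (47.1 to 48.8). The median isolated site had 5 such replicate 1 peaks within 200 kb, against 7 for the other regions, and none of replicate 2 in either group. The nearest lay a median of 21.9 kb from isolated sites and 14.6 kb from the others. At 111 isolated sites, 33.5% (28.7 to 38.8), some one-list peak in the flanks had a higher fold than the site itself in that replicate, against 42.7% of the others (41.9 to 43.6).

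One-list peaks were sparser around isolated sites in each bin of 20 kb up to 200 kb. Within 1 kb this was not seen, with such a peak at 11.2% of isolated sites and 10.9% of the others. Within 20 kb there were 14.7 replicate 1 peaks per Mb around isolated sites and 21.1 around the others. Between 180 and 200 kb the densities were 11.7 and 15.8 per Mb. For replicate 2 they were 1.89 and 2.55 per Mb within 20 kb, and 1.06 and 1.70 between 180 and 200 kb.

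**Figure D4:**
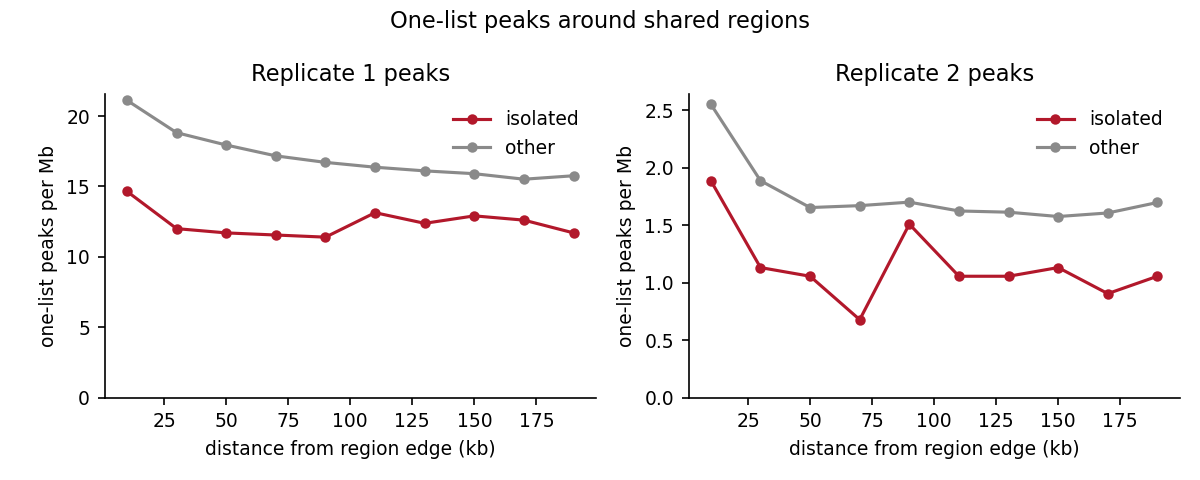
Peaks called in 1 list only, per Mb (y axis), by distance from the edge of the region in bins of 20 kb (x axis), for replicate 1 (left) and replicate 2 (right). The red line of isolated sites lies below the grey line of the other regions in every bin, with 14.7 against 21.1 per Mb in the first bin of replicate 1.

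Gaps beside isolated sites resembled other long gaps in this respect. The 603 gaps that bordered an isolated site held 12 replicate 1 one-list peaks per Mb, and the 1122 other gaps over 200 kb held 12.5. Gaps of up to 200 kb held 18.1. For replicate 2 the densities were 1.24, 1.16 and 1.83 per Mb. One-list peaks were also weaker there, with a median fold of 4.55 beside isolated sites, 4.74 in other long gaps and 5.16 in shorter gaps in replicate 1.

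At 10 isolated sites no peak of either list lay within 200 kb on both sides, where uniform placement of all regions would give 0.344. Chromosome 22 carried 4 of them and no other chromosome more than 1. On chromosome 22 these were chr22:6995228-6995691 with folds of 12.5 in replicate 1 and 9.50 in replicate 2, chr22:2392775-2393212 with 8.62 and 9.04, chr22:33692472-33692956 with 9.02 and 7.87, and chr22:7331911-7332249 with 3.45 and 4.43. The weakest of these, chr22:7331911-7332249, had its nearest one-list peak 999 kb away.

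The other 6 sites without any called peak nearby included strong ones. The site chr2:14338582-14339121, among the 10 strongest, had pileups of 153 and 47 extended reads and no one-list peak within 291 kb. At chr16:28335165-28335534 the folds were 17.5 and 12.4, and at chr5:52934310-52935040 they were 18.7 and 9.15. The folds were 10.5 and 6.63 at chr17:46706333-46706858, with 1334 kb free of shared regions after it. They were 7.81 and 5.39 at chr10:13814480-13814993, and 5.59 and 4.92 at chr9:40526042-40526663. When any peak of either list ended isolation, these 10 sites were all that stayed isolated, and their median fold was on average 1.18 times that of the other shared regions, the opposite direction to the 331 sites.

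The longest runs of neighbouring isolated sites held 4 sites each. On chromosome 22 a run from 5683886 to 8771334 held 4 sites in 3.09 Mb, and with the gaps around it 4.93 Mb carried no other shared region. Folds in this run were 3.45 to 12.5 in replicate 1 and 4.43 to 10.1 in replicate 2. On chromosome 12 a run from 1713020 to 2766353 held 4 sites in 1.05 Mb. Runs of 3 sites lay on chromosomes 1, 8 and 14. The first 10 Mb of chromosome 22 had 6.90 shared regions per Mb, against 13.3 per Mb in the next 10 Mb, 9.10 between 20 and 30 Mb and 6.72 from 30 Mb to the last peak. The first 10 Mb held 5 isolated sites and the stretch from 30 Mb on held 2. Median background at peaks of the first 10 Mb was 1.42 extended reads for replicate 1 peaks, and 1.76 in the next 10 Mb. From 30 Mb on it was 1.44. For replicate 2 peaks it was 0.900 in the first 10 Mb, 0.960 in the next and 0.940 from 30 Mb on. In sparse stretches such as these, closed chromatin and stretches where reads cannot be placed cannot be told apart.

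The last question was whether isolation in 1 list goes with being found in the other, which the choice of the 331 sites did not use in this form. Isolation was therefore defined within a single list, by the absence of any other peak of that list within 200 kb on both sides. In the replicate 2 list 297 peaks were isolated, and 216 of them overlapped a replicate 1 peak, or 72.7% (95% Wilson interval 67.4 to 77.5). Of the other replicate 2 peaks, 88.1% did (87.6 to 88.6), and of all of them 87.8%. In the deeper replicate 1 list 45 peaks were isolated, and 12 of them were found in replicate 2, or 26.7% (16 to 41.0), against 42.1% of the others (41.5 to 42.6). Over all replicate 1 peaks the share was also 42.1%. The share was lower for isolated peaks in both directions, and no test was run because peaks share their libraries.

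Part of the peaks isolated in 1 list were weak, so the shares are also given within classes of fold. Of the replicate 2 peaks with a fold under 4, replicate 1 also had 25% when they were isolated (95% Wilson interval 10.2 to 49.5, n = 16) and 52.7% when they were not (48.3 to 57.0, n = 509). Peaks with folds of 4 to 6 were found in replicate 1 in 57.9% of cases when isolated (49.8 to 65.7, n = 145) and in 75.8% when not (74.7 to 76.9, n = 5381). With folds of 6 to 8 the shares were 89.3% (80.3 to 94.5, n = 75) and 94.9% (94.2 to 95.5, n = 4490), and their intervals overlapped. With folds of 8 or more all 61 isolated peaks were found again. Of the other peaks, 99.6% were found with folds of 8 to 10 (99.3 to 99.8, n = 2200) and 100% in each higher class. With nearly all peaks found in both groups, no difference was detectable there. Folds were not matched inside a class. In the class of 4 to 6 the median fold was 4.94 at isolated peaks and 5.09 at the others in replicate 2. In replicate 1 it was 4.31 and 4.81. Pileups of replicate 2 in the class of 4 to 6 were also lower, with a median of 8 extended reads at isolated peaks and 9 at the others. The part of these folds and pileups in the difference was not tested. In replicate 1 the class of 4 to 6 gave 10.5% (2.94 to 31.4, n = 19) against 21.0% (20.3 to 21.7, n = 12859), with overlapping intervals. Below a fold of 4 it was 11.1% (1.99 to 43.5, n = 9) against 9.75% (8.91 to 10.7, n = 4390), the opposite order. The classes from 6 up held at most 7 isolated peaks each, with the isolated share lower in some and higher in others.

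**Figure D5:**
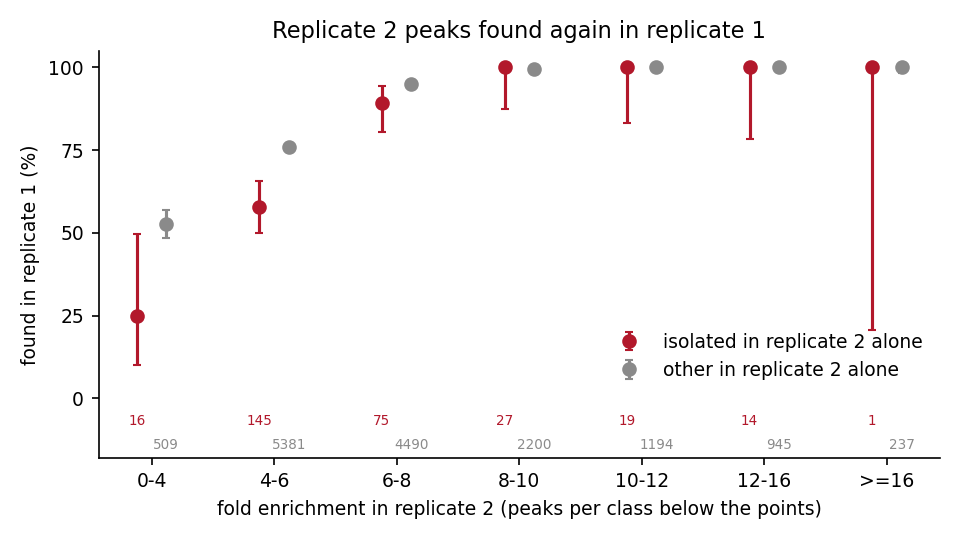
Share of replicate 2 peaks that overlap a replicate 1 peak (y axis, percent, with 95% Wilson intervals) by their fold enrichment in replicate 2 (x axis), for peaks isolated in the replicate 2 list alone (red) and the other peaks (grey); numbers of peaks stand below the points. The red points lie below the grey ones under a fold of 8, with 57.9% against 75.8% in the class of 4 to 6, where the intervals do not overlap.

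Since every shared region holds a peak of each list, isolation in 1 list largely carries over to the shared regions by construction. All peaks isolated in their own list and found in the other lay in isolated sites. The 216 such peaks of replicate 2 made up 65.3% of the 331 isolated sites, and the 12 of replicate 1 made up 3.63%.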

How the data were processed

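Open chromatin of sorted zebrafish cells was measured in 2 replicates, with 1 peak list deposited per replicate. Coordinates are in GRCz10, per the submitters' processing notes, which also list MACS2, Picard, DESeq2, SAMtools 1.9, HTSeq 0.8.0 and Bowtie2 2.5.0 with no role or order. The peak caller's threshold and any shift of reads for the transposase are not given in the sources used here. Another shift would displace summits and edges by a few bases. Fold enrichment, a ratio, and the −log10 p and q values were used as deposited by the authors. The deposited score equals 10 times −log10 q, cut to a whole number, in 100% of peaks.

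Fold was taken as pileup plus 1 over background plus 1. Summit pileups were recovered as the whole number whose upper Poisson tail matches −log10 p within 0.0002. This succeeded for all 33700 and 15814 nuclear peaks; in replicate 2, 29 peaks had a second match and took the higher one. Read totals were not used here, so depth was taken from the lowest background. Positions are printed 1-based. A region with several peaks of a list took the highest fold and the widest peak. A chromosome was taken to end at its last peak end. The uniform expectation per inner region is (1 − 2d/L) to the power N, with N regions on a chromosome of length L and d the distance plus the mean region width; it and the pileup recovery were tested on simulated data. Python 3.11.15, pandas 2.3.3 and NumPy 2.4.6 were used.

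The members, comparisons and alternatives were chosen with earlier results of these data known. Sites named by position were the 10 with the largest smaller gap, the 10 strongest and 5 weakest by the lower fold, the 5 widest, those without any called peak within 200 kb, and 3 on each side of the limit. Runs, windows and chromosome 22 were chosen after their values were seen. Gene names, annotation and sequences were not analysed here, since no GRCz10 genome was used. With 1 group, no test between groups applies.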

Additional observations from a re-analysis of the deposited data

How the results depend on the processing

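No paired analysis was possible because there is only 1 group. Among 77 recomputed values, 32 kept to the main ones, 37 moved and 8 changed direction. A count kept if within 1.5 times, and a share or an observed over expected ratio if within its 95% interval. A mean ratio of medians kept if within 1 SD of the 2 replicates, 0.00887 for fold and 0.0311 for peak width. These SDs rest on the same regions and are not spreads of independent estimates, so the tally is no measure of robustness. The main values were 331 sites, 1.67 times the uniform expectation, mean ratios of 0.904 for fold and 0.954 for peak width, 97.0% of sites with a one-list peak in the flanks, and 26.7% and 72.7% of peaks isolated in the replicate 1 and replicate 2 list found in the other. A distance of 100 kb gave 1232 sites, 0.773 times the expectation, ratios of 0.966 for fold and 1.01 for width, and shares of 92.2% for flanks and 77.9% for replicate 2. A distance of 300 kb gave 121 sites, 4.84 times the expectation. A −log10 q of at least 5 gave 1.06 times the expectation, ratios of 0.991 and 0.999, and shares of 90.4% and 88.2%. A minimum of 10 gave 736 sites, 0.760 times, ratios of 1.03 and 1.04, and shares of 86.3% and 95.9%. Reciprocal overlap of 50% gave 1.21 times, ratios of 0.961 and 0.992, and 59.3% for replicate 2. Summits within 150 bp gave 1.30 times, a fold ratio of 0.949 and 61.3%. Equal list lengths gave 1.12 times, ratios of 0.998 and 1.01, 81.2% for flanks, and 61.2% and 51.9% found again. Of the other peaks 71.4% were found again in each direction with equal list lengths. With chromosome 4 kept the number was 1.46 times the expectation. With any peak as neighbour 10 sites remained, 29.1 times the expectation, with ratios of 1.18 and 1.09. The replicate 1 list alone gave 45 sites, 35.2 times the expectation, with ratios of 0.893 for fold and 0.943 for width. The replicate 2 list alone gave 297 sites, 2.44 times the expectation, with ratios of 0.874 and 0.838. Set only against regions at least 10 kb from a neighbour, an alternative chosen after seeing the data, the ratios were 0.877 and 0.904. By construction fewer or more regions enter with other thresholds and lists; beyond that the cause was not tested. The share of isolated peaks found again was below that of other peaks in both directions under all 9 alternatives run for it, by the least with a −log10 q of at least 10, at 95.9% against 96.4% for replicate 2. The share of other peaks moved with the setting too. For replicate 2 it was 92.1% with a −log10 q of at least 5, 74.2% with reciprocal overlap and 77.5% with summits within 150 bp. The lowest summit pileup at an isolated site was 7 extended reads in replicate 1 and 5 in replicate 2, so the weakest calls rest on few reads.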

Other observations

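The excess of isolated sites moved with the distance as a multiple of the mean spacing of the regions used, a relation seen after the values were known. The mean spacing was 239 kb with a −log10 q of at least 10, so that 200 kb was 0.836 spacings, and the observed number was 0.760 times the uniform expectation. A distance of 100 kb with all shared regions was 1.05 spacings and gave 0.773 times. With equal list lengths 200 kb was 1.70 spacings and gave 1.12 times. With all shared regions 200 kb was 2.10 spacings and gave 1.67 times, and 300 kb was 3.15 spacings and gave 4.84 times. In the replicate 2 list alone 200 kb was 2.42 spacings and gave 2.44 times, and in the replicate 1 list alone it was 5.16 spacings and gave 35.2 times. The order broke with any peak of either list as neighbour, where 200 kb was 5.39 spacings and gave 29.1 times, from 10 sites. These settings share their peaks and are not independent of each other. By its formula the expectation falls steeply as this multiple rises, from 969 sites at 0.836 spacings to 1.28 at 5.16. The order of the ratios is therefore largely built into the expectation and is not a separate result.

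Among sites with at least 60 extended reads at the summits of both replicates in sum, the median pileup ratio of replicate 1 to replicate 2 was 2.64 at 73 isolated sites and 2.29 at 3646 other regions. Over all sites the order was the opposite, with medians of 1.93 at isolated sites and 2 at the others. The depth ratio from the genome-wide background was 2.28. The limit of 60 was set on the same pileups as the ratio, so it can itself shift the ratio in either group. These values therefore do not show whether isolated sites differ, and the difference was not tested.

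Background at the genome-wide level, the lowest the peak caller uses, was found in replicate 1 at 15.7% of isolated sites (95% Wilson interval 12.2 to 20.0) and at 12.9% of the other regions at least 10 kb from a neighbour (12.2 to 13.6). In replicate 2 the shares were 11.2% (8.22 to 15) and 10.8% (10.1 to 11.5). A one-list peak within 1 kb lay at 37 isolated sites, 11.2% (8.22 to 15), and at 10.9% of the other regions (10.4 to 11.5), while one-list peaks were sparser around isolated sites in every 20 kb bin up to 200 kb.

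The longest single gap at an isolated site, chosen after its value was seen, followed chr20:10500262-10501093, with 2248 kb free of shared regions after it and folds of 11.5 in replicate 1 and 11.9 in replicate 2.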
